A study of Mus musculus with 6 samples.

Results

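Annexins are calcium-dependent proteins that bind negatively charged phospholipids, above all phosphatidylserine, on the inner face of membranes. Each is built from repeats of one conserved fold, and the members differ mainly in their amino-terminal tails, which dock partners such as S100 proteins. In fibroblasts and other adherent cells they take part in membrane repair, in linking membranes to cortical actin, in endocytosis and in the release of vesicles, and in bone-forming cells they are carried by the matrix vesicles that start mineral growth. The 9 annexins described here, Anxa1, Anxa2, Anxa3, Anxa4, Anxa5, Anxa6, Anxa7, Anxa8 and Anxa11, were found by symbol among 23358 rows of the gene table, which holds 12 annexins in all. The members were chosen by name with the measured fold changes known, Anxa8 for the size of its rise, so their values in this comparison are a description and carry no p-value.

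The cells came from C57BL/6 mouse bone marrow and were cultured mesenchymal stem cells, plastic-adherent precursors of bone, fat and cartilage cells, used at passage 6 to 12. In 3 libraries the cells had received an siRNA against Dia2 (50 nM), the formin encoded by Diaph3, and in 3 libraries a non-targeting control siRNA. Both groups were transfected overnight with Lipofectamine RNAiMax, moved to fresh medium and harvested 24 h later. Formins nucleate and elongate unbranched actin filaments. The knock-down was transient, rested on 1 siRNA sequence, and separate cultures are not stated for the replicates. Errors and p-values therefore cover the spread among 3 libraries a group, and that spread may be technical.

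Summed gene counts were 78529650 to 95573070 in the Dia2 siRNA libraries and 70538768 to 110006338 in the control siRNA libraries. CPM below are counts scaled to library size with TMM factors, and fold changes and their SE come from edgeR fitted over all 14151 genes tested. Diaph3, listed as Diap3, stood at 7.52, 8.37 and 7.39 CPM with Dia2 siRNA, against 84.7, 80.1 and 84.8 CPM with control siRNA, a log2 fold change of -3.42 ± 0.07 (adjusted p = 1.66e-11 by edgeR). The ribosomal precursor Rn45s held the most counts in Dia2 replicate 1 (10.9%) and control replicate 3 (11.7%). Of 10 mesenchymal stem cell markers 9 were tested and 8 were higher with Dia2 siRNA, where 29.3% of all genes tested were higher. Their summed RPKM was 470 to 538 with Dia2 siRNA, against 230 to 261 with control siRNA. Cxcl12 alone averaged 243 RPKM with Dia2 siRNA and 96.8 RPKM with control siRNA. Thy1 was near 0 in both groups, and the part of these markers in the annexin values was not tested. In bulk RNA, fewer cells of a type and less RNA per cell cannot be told apart.

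Promoters are shown for Anxa8, which differed most between the groups, and for Anxa1 and Anxa2, the most abundant members. Each line gives the 250 bases before the annotated start in RefSeq (GRCm38.p6), 5′ to 3′ along the gene. The windows are chr14:34085729-34085978 on the plus strand for Anxa8, chr19:20390672-20390921 on the minus strand for Anxa1 and chr9:69453433-69453682 on the plus strand for Anxa2.
Anxa8: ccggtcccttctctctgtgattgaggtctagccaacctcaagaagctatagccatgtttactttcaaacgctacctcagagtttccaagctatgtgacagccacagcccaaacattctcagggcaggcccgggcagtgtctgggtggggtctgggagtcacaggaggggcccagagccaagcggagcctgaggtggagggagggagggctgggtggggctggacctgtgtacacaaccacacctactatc
Anxa1: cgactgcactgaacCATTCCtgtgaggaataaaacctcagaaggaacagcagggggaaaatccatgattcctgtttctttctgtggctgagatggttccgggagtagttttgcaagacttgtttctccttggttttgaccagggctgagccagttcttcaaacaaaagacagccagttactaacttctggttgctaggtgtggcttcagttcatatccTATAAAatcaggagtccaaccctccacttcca
Anxa2: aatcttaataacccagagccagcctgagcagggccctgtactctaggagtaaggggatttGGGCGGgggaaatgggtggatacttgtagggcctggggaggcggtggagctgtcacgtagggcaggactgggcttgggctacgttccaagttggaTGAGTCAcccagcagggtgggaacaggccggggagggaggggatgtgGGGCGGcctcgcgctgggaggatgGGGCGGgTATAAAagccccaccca
Capitals mark matches, on either strand, to the TATA box TATAAA, the CCAAT box, the GC box GGGCGG, the AP-1 site TGACTCA, the E-box CACGTG and the TEAD site GGAATG, none of which overlapped another here. Over the full table windows, which run 50 bases past the start, these letters occurred in 13.6%, 37.4%, 35.7%, 5.2%, 7.15% and 14.7% of 32851 promoters. The Anxa8 window held none of the 6, which says only that these letters are not in it. The Anxa1 window held a TATA box and a TEAD match, and the Anxa2 window a TATA box, 3 GC boxes and an AP-1 match. GC content of the full window was 57.3% for Anxa8, 47.3% for Anxa1 and 63.7% for Anxa2, against a median of 52.7% over all promoters. The Anxa8 window had 5 CpG, the Anxa1 window 3 and the Anxa2 window 13, against a median of 7. Of the 9 members, 7 matched an entry of this table, and Anxa3 and Anxa6 had none.

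Anxa8, the annexin known from human acute promyelocytic leukaemia and from surface epithelia, stood above Anxa11 in RPKM (a level per transcript length) after Dia2 knock-down, while in control cells it was the scarcest of the 9 members. Its counts were 3920, 5208 and 4858 in the Dia2 siRNA libraries, against 240, 230 and 154 in the control siRNA libraries. On the CPM scale this was 52.1, 54.2 and 51.9 with Dia2 siRNA, against 2.14, 2.80 and 2.23 with control siRNA. Every Dia2 library lay far above every control library, and the spread within each group was small beside the gap. The means were 52.7 ± 1.29 CPM with Dia2 siRNA and 2.39 ± 0.358 CPM with control siRNA (SD, n = 3 each), a 22.1-fold difference with a log2 fold change of 4.47 ± 0.09 (SE). With Dia2 replicate 1 and control replicate 3, the libraries richest in Rn45s, left out it was 4.44. In GENCODE M21 (GRCm38) the gene occupies chromosome 14, 34085981 to 34100571, plus strand, and shares no exon with another annotated gene.

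Only 8 of 14151 tested genes had a larger log2 fold change than Anxa8, and 7 of these averaged under 2 CPM, with at most 1.73 CPM in the Dia2 siRNA group. The remaining one, the predicted gene Gm20594, had 34, 19456 and 22 counts with Dia2 siRNA, against 18, 16 and 36 with control siRNA. Its high mean rested on Dia2 replicate 2 alone. Among the 11007 genes averaging at least 2 CPM, Anxa8 therefore had the largest rise shared by all 3 Dia2 siRNA libraries.

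The nearest tested genes on each side of Anxa8 did not share its fold change. Genes with too few counts to test were passed over. Zfp488, a zinc-finger gene 107 kb away on the upstream side, was 1.59-fold higher, at 18.3 ± 1.27 CPM with Dia2 siRNA and 11.5 ± 0.682 CPM with control siRNA (SD, n = 3 each, log2 fold change 0.67 ± 0.07, edgeR adjusted p = 6.18e-06). A630023A22Rik, which overlaps Anxa8 on the opposite strand without sharing an exon, stood at 0.139 CPM with Dia2 siRNA and 0.159 CPM with control siRNA (log2 fold change -0.12 ± 0.49, edgeR adjusted p = 0.849). On the downstream side, Npy4r, a receptor of the neuropeptide Y family listed as Ppyr1, and Syt15, a synaptotagmin, did not pass the test (log2 fold changes 0.90 ± 0.44 and 0.55 ± 0.30, edgeR adjusted p = 0.0964 and 0.139). Both stood below 1 CPM in both groups.

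Of the epithelial markers, which label tissues where Anxa8 is usually found, 2 of 8 reached the filter, and they moved in opposite directions. Trp63, an epithelial transcription factor, stood at 14.2 CPM with Dia2 siRNA and 6.33 CPM with control siRNA (log2 fold change 1.17 ± 0.09, edgeR adjusted p = 2.73e-07). Krt19, a keratin, stood at 27.3 CPM with Dia2 siRNA and 60.9 CPM with control siRNA (log2 fold change -1.15 ± 0.06, edgeR adjusted p = 1.17e-08). Epcam was at 0 in all libraries and Krt5, Krt14, Krt8, Krt18 and Cdh1 averaged at most 0.123 CPM in either group. Summed over the 8 markers, RPKM was 17.5 to 19.4 with Dia2 siRNA, against 34.9 to 41.7 with control siRNA. Most of this sum was Krt19, at a mean of 16.5 RPKM with Dia2 siRNA and 37.8 RPKM with control siRNA. The sum of the 8 markers thus mainly repeats that gene. Their part in the Anxa8 difference was not tested.

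**Figure D1:**
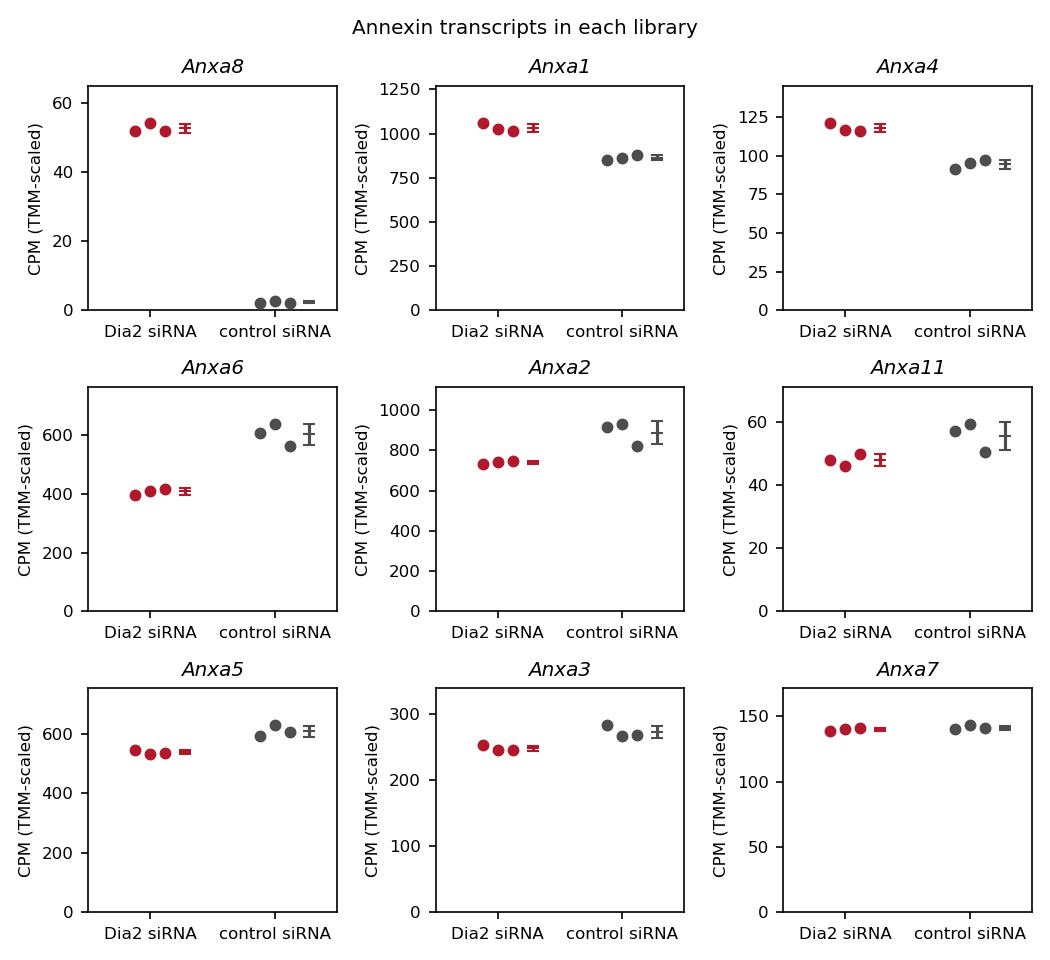
CPM of the 9 annexins in each library (points; TMM-scaled, linear axes from 0), with the mean and SD of each group beside them, Dia2 siRNA in red and control siRNA in grey. Anxa8 stands at 51.9 to 54.2 CPM with Dia2 siRNA and 2.14 to 2.80 CPM with control siRNA, Anxa1 and Anxa4 are modestly higher, Anxa7 overlaps, and the other 5 are lower.

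Among the other members the differences were small, and more of them were lower than higher. Counting Anxa8, 3 members were higher, 5 were lower and Anxa7 did not pass an adjusted p of 0.05. Of all genes tested, 59.2% passed that threshold, 29.3% higher and 29.9% lower, and since the members were chosen with these values known nothing is read from their count. The groups did not overlap for 8 of the 9 members and for 64.6% of all genes. The median absolute log2 fold change was 0.30 over all genes tested and 0.25 over the 2034 genes averaging at least 100 CPM.

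Anxa1, the glucocorticoid-induced annexin that limits inflammation through formyl peptide receptors, had 1058, 1027 and 1014 CPM with Dia2 siRNA, against 853, 864 and 877 CPM with control siRNA. The groups were clearly apart, with a log2 fold change of 0.26 ± 0.04, or 1.19-fold. Anxa4, an annexin found beneath the plasma membrane of epithelia and able to self-assemble on membranes, had 121, 117 and 116 CPM with Dia2 siRNA, against 91.5, 95.3 and 97.2 CPM with control siRNA. Its log2 fold change of 0.32 ± 0.04, or 1.24-fold, was the second largest rise of the family after that of Anxa8.

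Anxa6, whose protein carries a duplicated annexin core and acts in cholesterol transport and membrane repair, showed the largest fall of the 9. It had 396, 410 and 417 CPM with Dia2 siRNA, against 606, 635 and 562 CPM with control siRNA. All Dia2 siRNA libraries lay well below all control libraries, at a log2 fold change of -0.56 ± 0.05 or 1.47-fold lower. Of all genes tested, 25.3% had a larger absolute log2 fold change than Anxa6.

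Anxa2, which pairs with S100a10 at the plasma membrane and binds plasminogen, was 1.2-fold lower, with 733, 743 and 745 CPM in Dia2 siRNA libraries, against 914, 929 and 822 CPM in control siRNA libraries. Control replicate 3 was the lowest control, and the groups still did not overlap (log2 fold change -0.26 ± 0.05). Anxa5, the phosphatidylserine binder used as a probe of dying cells, had 546, 533 and 536 CPM with Dia2 siRNA, against 592, 629 and 606 CPM with control siRNA. It was 1.13-fold lower (log2 fold change -0.18 ± 0.04), with each group in a narrow band.

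Anxa3 and Anxa11 were lower by amounts that passed the threshold in some fits only, and Anxa7 did not pass. Anxa3, a small annexin abundant in neutrophils, had 253, 246 and 246 CPM with Dia2 siRNA, against 283, 267 and 269 CPM with control siRNA (log2 fold change -0.14 ± 0.04). Anxa11, whose long tail tethers RNA granules to lysosomes, had 48, 46.0 and 50.0 CPM with Dia2 siRNA, against 57.1, 59.3 and 50.7 CPM with control siRNA (log2 fold change -0.22 ± 0.06). The highest Dia2 siRNA library of Anxa11 almost met the lowest control library. Anxa7, also called synexin and named for promoting fusion of chromaffin granules, had 139, 140 and 141 CPM with Dia2 siRNA, against 140, 143 and 141 CPM with control siRNA. Its log2 fold change was -0.01 ± 0.04, and 97.6% of all genes had a larger absolute value. Anxa3 passed the threshold in 11 of 16 alternative fits and Anxa11 in 14 of 16, and without Dia2 replicate 2 both missed it, so that 3 members were then lower in place of 5. Anxa1, Anxa2, Anxa4, Anxa5, Anxa6 and Anxa8 passed in all 16, and Anxa7 in 0. The fits draw on the same 6 libraries and the members were chosen with their values known, so these passes describe the fits only.

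**Figure D2:**
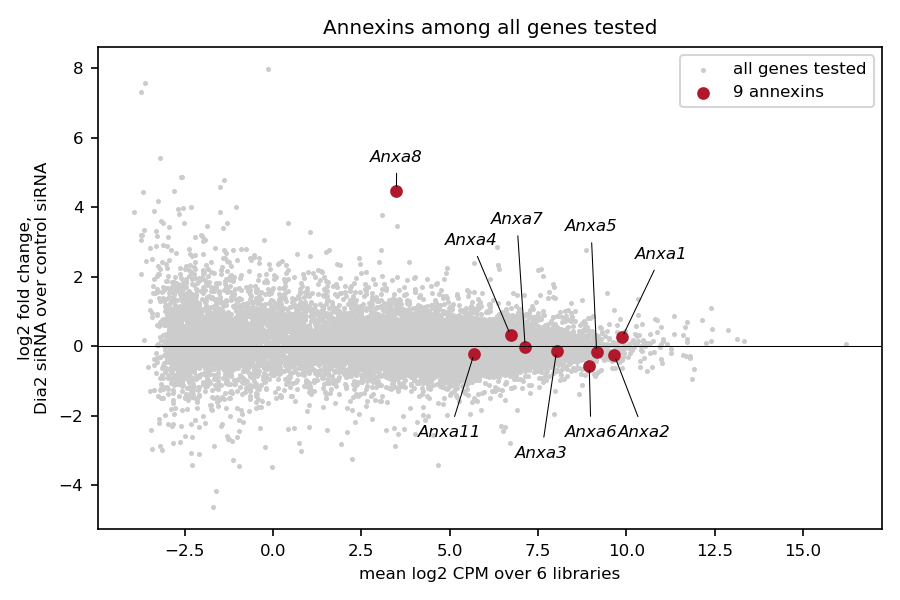
Log2 fold change, Dia2 siRNA over control siRNA, against mean log2 CPM over the 6 libraries for the 14151 genes tested (grey), with the 9 annexins in red. Anxa8 stands alone above its neighbours at 4.47 while the other 8 annexins lie between -0.56 and 0.32 among the more abundant genes.

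Annotated neighbours limit what counting can separate for some members. An exon of Anxa2 overlaps 98 bases of the antisense transcript Gm16144, one of Anxa4 75 bases of Gm44036 and one of Anxa11 113 bases of Anxa11os, all on the opposite strand, and one of Anxa3 112 bases of Gm42603 on the same strand. The sources used here do not state the strand setting of the counts. Anxa1, Anxa5, Anxa6, Anxa7 and Anxa8 shared no exon with another annotated gene.

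Levels can be compared between genes only per transcript length, for which the deposited RPKM were used. With Dia2 siRNA the order ran from Anxa1 at 615 ± 13 RPKM through Anxa2 at 448 ± 23.0, Anxa5 at 259 ± 8.50, Anxa3 at 129 ± 3.68, Anxa6 at 127 ± 8.65, Anxa4 at 48.8 ± 0.928, Anxa7 at 39.2 ± 1.89 and Anxa8 at 23.5 ± 1.23 to Anxa11 at 16.7 ± 1.14 (SD, n = 3). Only Anxa3 and Anxa6 overlapped as neighbours in that order. With control siRNA Anxa2 led at 553 ± 58.4 RPKM and overlapped Anxa1 at 528 ± 16.6, followed by Anxa5 at 302 ± 17.5, Anxa6 at 193 ± 19.4, Anxa3 at 146 ± 8.82, Anxa7 at 40.6 ± 1.94, Anxa4 at 40.3 ± 1.24, Anxa11 at 19.9 ± 2.38 and Anxa8 at 1.09 ± 0.191. There Anxa7 and Anxa4 overlapped too.

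Anxa1 stood above Anxa2 at the top of the family in every Dia2 siRNA library, while in control cells their levels were close. The ratio of Anxa1 to Anxa2 RPKM was 1.42, 1.36 and 1.34 in Dia2 siRNA libraries, against 0.919, 0.916 and 1.05 in control siRNA libraries, with no overlap. As a share of the summed RPKM of the 9 members, Anxa1 made up 36.0% ± 0.557 with Dia2 siRNA and 29.0% ± 1.1 with control siRNA, and Anxa2 26.2% ± 0.379 with Dia2 siRNA and 30.2% ± 1.24 with control siRNA (SD, n = 3 each). Anxa6 held 7.46% ± 0.241 with Dia2 siRNA and 10.6% ± 0.351 with control siRNA. Anxa8 held 1.38% ± 0.0379 with Dia2 siRNA and 0.0598% ± 0.00779 with control siRNA, a minor part of the family in both groups. The summed RPKM overlapped, at 1639, 1722 and 1759 with Dia2 siRNA, against 1867, 1918 and 1685 with control siRNA. This overlap rested on control replicate 3, which was rich in Rn45s (11.7%). Unlike the CPM, the deposited RPKM carry no TMM factor, and the part of Rn45s in the sums was not tested.

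**Figure D3:**
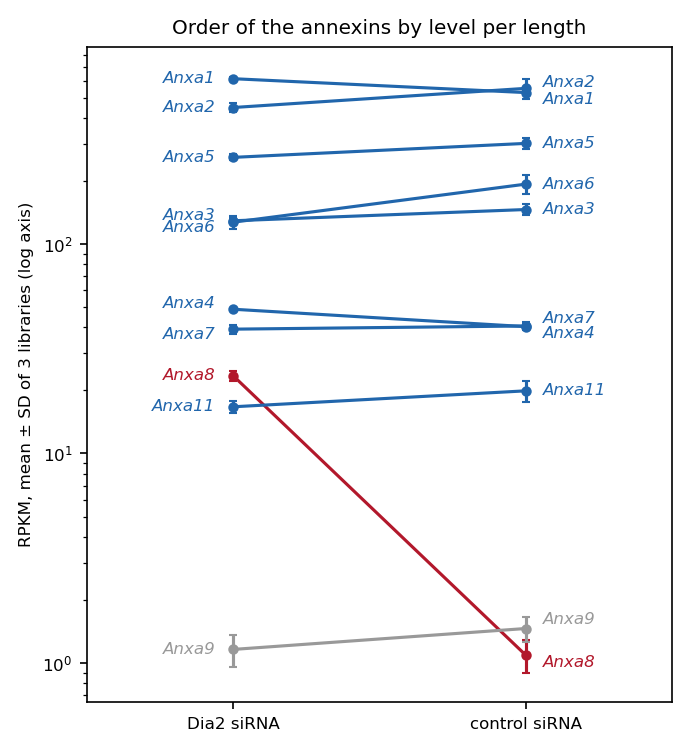
Mean RPKM ± SD of 3 libraries (log axis) for 10 annexins, with Dia2 siRNA on the left and control siRNA on the right and a line joining each gene. Anxa8 lies above Anxa11 and Anxa9 with Dia2 siRNA (23.5 RPKM). With control siRNA (1.09 RPKM) it lies below Anxa11, and its libraries overlap those of Anxa9. Anxa1 and Anxa2, whose levels overlap with control siRNA, are apart with Dia2 siRNA.

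The annexins outside the 9 were scarce. Anxa9, an annexin whose core has lost much of its calcium binding, had 2.76, 3.27 and 2.29 CPM with Dia2 siRNA, against 3.35, 3.73 and 3.08 CPM with control siRNA, and did not pass the test (log2 fold change -0.29 ± 0.14). Its exons overlap those of Mindy1 and 6330562C20Rik. Anxa10 had 4, 12 and 8 counts with Dia2 siRNA, against 6, 0 and 4 with control siRNA, and Anxa13, the ancestral annexin of the gut, had 10, 4 and 2 with Dia2 siRNA, against 10, 6 and 2 with control siRNA. Both stood near the floor of 6 counts, which is 3 fragments since every count was even, and were not tested.

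The encoded proteins of GENCODE M21 fall into a compact set. Most members have 319 to 346 residues, Anxa6 has 673, and Anxa7 and Anxa11, which carry long tails, have 463 and 503. Anxa8, with 327 residues, was closest to Anxa5 at 55.4% identity, followed by Anxa6 at 54.5% and Anxa4 at 54.2%, and least like Anxa1 among the 9 at 42.9%. Its 3 nearest relatives were thus 2 members with lower and 1 with higher transcript levels after Dia2 knock-down.

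The genes whose log2 CPM followed Anxa8 most closely over the 6 libraries were Dcaf11, an adaptor of ubiquitin ligases (Pearson r = 0.9999), Irak3, a brake on Toll-like receptor signalling (0.9998), Zfp180, a zinc-finger gene (0.9997), Itga1, the integrin α1 chain (0.9996), and Uggt1, a folding sensor of the endoplasmic reticulum (0.9996). They resembled Anxa8 in pattern and not in size. Dcaf11, for example, had 34.5, 35.0 and 34.1 CPM with Dia2 siRNA, against 16.6, 17.7 and 16.9 CPM with control siRNA. With 2 groups that stand apart, 611 of 11006 genes reached r of 0.99, so such values mainly record a difference between groups.

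S100 proteins are small calcium sensors that dock on annexin tails, and of 16 genes on the list (including S100pbp, which binds an S100 protein and is not one), 11 were tested, 5 higher and 3 lower. Their median log2 fold change was 0.16, against 0.01 over all genes. The counts of this list and of those below stand beside 29.3% higher and 29.9% lower of all genes tested. The lists were chosen with earlier results of these data known, and the genes named are mostly the most changed of each list. Their p-values are therefore a description and not independent tests. S100a10, which joins Anxa2 in a tetramer, had 187 ± 1.39 CPM with Dia2 siRNA and 124 ± 6.96 CPM with control siRNA (SD, n = 3 each, log2 fold change 0.59 ± 0.05, edgeR adjusted p = 6.93e-07). S100a10 was therefore 1.5-fold higher where Anxa2 was 1.2-fold lower. S100a11, which binds the tail of Anxa1, was 1.13-fold higher beside it (651 CPM with Dia2 siRNA and 577 CPM with control siRNA, log2 fold change 0.17 ± 0.04, edgeR adjusted p = 0.0046). S100a4, a regulator of non-muscle myosin, showed 364 CPM with Dia2 siRNA and 199 CPM with control siRNA (0.87 ± 0.06, edgeR adjusted p = 1.08e-07), and S100a16 showed 113 CPM with Dia2 siRNA and 150 CPM with control siRNA (-0.41 ± 0.06, edgeR adjusted p = 6.64e-05). S100a6, a sensor that binds several annexins, gave 2055 CPM with Dia2 siRNA and 1959 CPM with control siRNA and did not pass (edgeR adjusted p = 0.193). The neutrophil proteins S100a8 and S100a9 were at or near 0.

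Of other binding partners, 9 were in the table and all 9 were tested, 3 higher and 4 lower, with a median log2 fold change of -0.02. Pdcd6, the calcium sensor ALG-2 that binds Anxa7 and Anxa11, was the most changed, at 45.1 ± 0.332 CPM with Dia2 siRNA and 70.3 ± 1.43 CPM with control siRNA (SD, n = 3 each, log2 fold change -0.64 ± 0.04, edgeR adjusted p = 1.88e-07). Ahnak, the giant scaffold held by Anxa2 and S100a10, was 1.11-fold higher (1363 CPM with Dia2 siRNA and 1230 CPM with control siRNA, edgeR adjusted p = 0.0126). Prkca, the protein kinase C form that Anxa6 binds, and Cd63, a tetraspanin of late endosomes, were lower (-0.37 ± 0.04 and -0.23 ± 0.04, edgeR adjusted p = 1.52e-05 and 0.000845). Sri, the Anxa7 partner sorcin, gave 112 CPM with Dia2 siRNA and 114 CPM with control siRNA (edgeR adjusted p = 0.753). Without Dia2 replicate 2 or without Dia2 replicate 3, 1 of these partners was higher in place of 3.

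Plasma membrane repair, in which annexins seal wounds together with dysferlin, caveolae and the ESCRT machinery, was represented by 21 genes of the table, of which 19 were tested, 7 higher and 3 lower, with a median log2 fold change of 0. Dysf, which also counts among the binding partners above, had 57.0 ± 2.82 CPM with Dia2 siRNA and 38.3 ± 2.72 CPM with control siRNA (SD, n = 3 each, log2 fold change 0.57 ± 0.06, edgeR adjusted p = 8.2e-06). Chmp3, an ESCRT-III subunit, showed 107 CPM with Dia2 siRNA and 46.1 CPM with control siRNA (1.21 ± 0.04, edgeR adjusted p = 1.24e-09), whereas Chmp4b, another subunit, showed 159 CPM with Dia2 siRNA and 208 CPM with control siRNA (-0.38 ± 0.04, edgeR adjusted p = 1.18e-05). Genes of caveolae, the flask-shaped membrane pits, included Cavin2, listed as Sdpr (94.3 CPM with Dia2 siRNA and 46.8 CPM with control siRNA, 1.01 ± 0.05, edgeR adjusted p = 1.25e-08), and Cav1 (98.8 CPM with Dia2 siRNA and 66.4 CPM with control siRNA, 0.58 ± 0.06, edgeR adjusted p = 9.05e-06). Ehd1, a membrane-shaping ATPase, showed 271 CPM with Dia2 siRNA and 446 CPM with control siRNA (-0.72 ± 0.06, edgeR adjusted p = 8.3e-07). Without control replicate 3 the list counted 5 lower genes in place of 3.

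Genes of scramblase and flippase families, some of which move phosphatidylserine, the lipid to which annexins bind, across the membrane, split in direction. The list was not limited to proteins established as movers of that lipid. Of 14 scramblases and flippases 13 were tested, 7 higher and 2 lower, with a median log2 fold change of 0.27. Plscr1 showed the largest change of the list, at 9.59 ± 0.712 CPM with Dia2 siRNA and 37.5 ± 1.31 CPM with control siRNA (SD, n = 3 each), 3.91-fold lower (log2 fold change -1.97 ± 0.07, edgeR adjusted p = 9.14e-10). Its relatives went the other way, with Plscr3 at 44.0 CPM with Dia2 siRNA and 18.8 CPM with control siRNA (1.22 ± 0.07, edgeR adjusted p = 4.26e-08), Plscr2 at 24.4 CPM with Dia2 siRNA and 14.2 CPM with control siRNA (0.78 ± 0.08, edgeR adjusted p = 3.98e-06) and Plscr4 at 18.6 CPM with Dia2 siRNA and 14.1 CPM with control siRNA (0.41 ± 0.07, edgeR adjusted p = 0.000412). Atp8b1, a flippase, showed 9.73 CPM with Dia2 siRNA and 3.63 CPM with control siRNA (1.43 ± 0.11, edgeR adjusted p = 4.06e-07). Tmem30a, the subunit that flippases need, showed 76.4 CPM with Dia2 siRNA and 118 CPM with control siRNA (-0.63 ± 0.10, edgeR adjusted p = 0.000361), and Ano6, the calcium-activated scramblase, did not pass (273 CPM with Dia2 siRNA and 256 CPM with control siRNA, edgeR adjusted p = 0.0771).

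**Figure D4:**
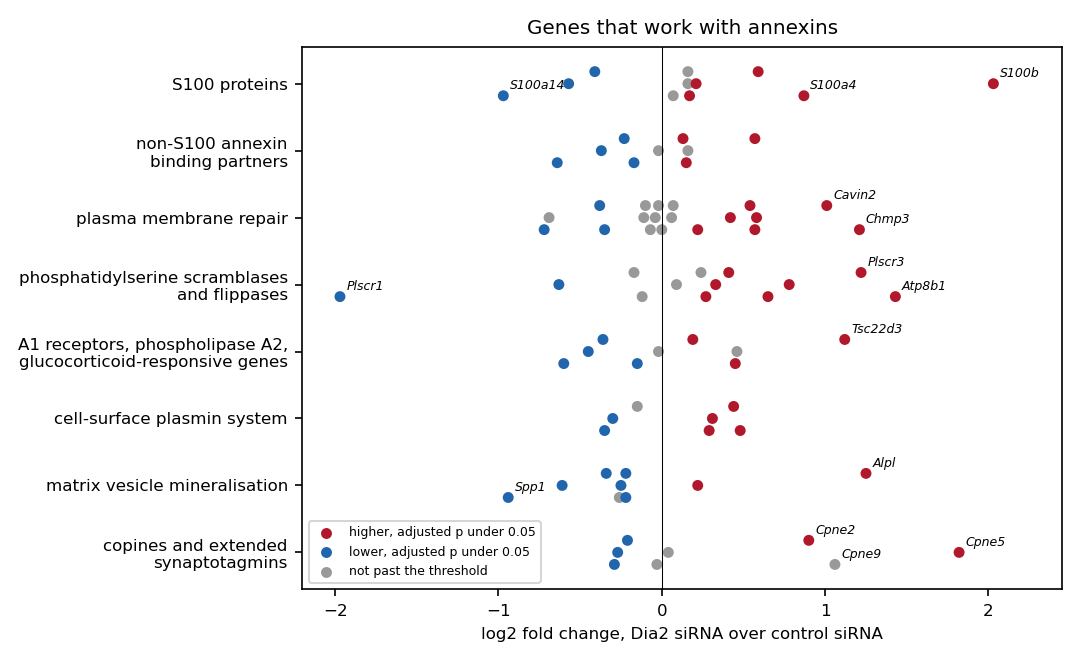
Log2 fold changes, Dia2 siRNA over control siRNA, of the tested genes in 8 lists related to annexin function, with 1 point a gene, red for higher, blue for lower and grey for not past the threshold. Names mark changes of at least 0.85 in either direction. Scramblases and flippases spread widest, from -1.97 for Plscr1 to 1.43 for Atp8b1.

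The genes around Anxa1 signalling did not move in one direction. Of 11 receptors, phospholipase A2 and glucocorticoid-responsive genes 9 were tested, 3 higher and 4 lower, with a median log2 fold change of -0.02. The receptor Fpr1 stood at 0.169 CPM with Dia2 siRNA and 0.120 CPM with control siRNA and did not pass, Fpr2 was too scarce to test and Fpr3 was at 0. Among glucocorticoid-responsive genes Tsc22d3 showed 38.0 ± 1.49 CPM with Dia2 siRNA and 17.6 ± 1.15 CPM with control siRNA (SD, n = 3 each, 1.12 ± 0.07, edgeR adjusted p = 5.23e-08), while Zfp36 (9.23 CPM with Dia2 siRNA and 14 CPM with control siRNA, -0.60 ± 0.07, edgeR adjusted p = 2.03e-05), Sgk1 (112 CPM with Dia2 siRNA and 154 CPM with control siRNA, -0.45 ± 0.05, edgeR adjusted p = 6.71e-06) and Fkbp5 (40.7 CPM with Dia2 siRNA and 52.0 CPM with control siRNA, -0.36 ± 0.05, edgeR adjusted p = 8.89e-05) were lower. Nr3c1, the glucocorticoid receptor, showed 156 CPM with Dia2 siRNA and 114 CPM with control siRNA (0.45 ± 0.06, edgeR adjusted p = 3.42e-05). Pla2g4a, the phospholipase that Anxa1 restrains, was 1.11-fold lower (edgeR adjusted p = 0.0143).

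Of 9 genes of the cell-surface plasmin system, for which the Anxa2 and S100a10 complex is a docking site, 7 were tested, 4 higher and 2 lower, with a median log2 fold change of 0.29. Plat, tissue plasminogen activator, showed 108 ± 1.52 CPM with Dia2 siRNA and 87.3 ± 5.70 CPM with control siRNA (SD, n = 3 each, 0.31 ± 0.05, edgeR adjusted p = 0.000259), and the urokinase gene Plau showed 39.6 CPM with Dia2 siRNA and 50.5 CPM with control siRNA (-0.35 ± 0.07, edgeR adjusted p = 0.000578). Serpine2, an inhibitor of these proteases, showed 131 CPM with Dia2 siRNA and 94.3 CPM with control siRNA (0.48 ± 0.05, edgeR adjusted p = 8.5e-06). Plasminogen itself, Plg, was near 0.

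Of 10 genes linked to mineralisation by matrix vesicles, 9 were tested, 2 higher and 6 lower, with a median log2 fold change of -0.25. The list includes secreted matrix proteins and both promoters and inhibitors of mineral. Its count and median therefore do not describe vesicle components as such. Of all genes tested, 29.3% were higher and 29.9% lower. Alpl, the phosphatase that frees phosphate for mineral, was higher, at 7.29 ± 0.618 CPM with Dia2 siRNA and 3.05 ± 0.282 CPM with control siRNA (SD, n = 3 each, 1.25 ± 0.10, edgeR adjusted p = 8.32e-07). Spp1, the mineral-binding protein osteopontin, was lower, at 2713 ± 61.6 CPM with Dia2 siRNA and 5201 ± 265 CPM with control siRNA (-0.94 ± 0.05, edgeR adjusted p = 1.29e-08). Smpd3, a sphingomyelinase needed for bone mineral, showed 67.5 CPM with Dia2 siRNA and 103 CPM with control siRNA (-0.61 ± 0.06, edgeR adjusted p = 2.14e-06). Enpp1, which makes the mineralisation inhibitor pyrophosphate, showed 68.2 CPM with Dia2 siRNA and 86.2 CPM with control siRNA (-0.34 ± 0.07, edgeR adjusted p = 0.000862). The other higher gene, Slc20a1, showed 102 CPM with Dia2 siRNA and 87.6 CPM with control siRNA (0.22 ± 0.04, edgeR adjusted p = 0.000828). Anxa2, Anxa5 and Anxa6, which are among the annexins of matrix vesicles, were lower. Of the other members, Anxa1, Anxa4 and Anxa8 were higher, Anxa3 and Anxa11 were lower, and Anxa7 did not pass. The members were chosen with these values known, so nothing is read from their direction beside the list.

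Copines and extended synaptotagmins, which bind the same lipids through C2 domains, comprised 12 genes, of which 8 were tested, with 2 higher and 3 lower and a median log2 fold change of 0.01. Cpne2 showed 52.5 ± 1.45 CPM with Dia2 siRNA and 28.2 ± 2.71 CPM with control siRNA (SD, n = 3 each, 0.90 ± 0.07, edgeR adjusted p = 4.68e-07). The other higher gene, Cpne5, was scarce, with 24, 26 and 26 counts with Dia2 siRNA, against 18, 0 and 4 with control siRNA (edgeR adjusted p = 0.0247). Cpne1, Cpne8 and Esyt2 were lower by 0.21 to 0.29 on the log2 scale (edgeR adjusted p = 0.000746, 0.000904 and 0.00141). Without Dia2 replicate 1, without Dia2 replicate 3 or without control replicate 2, 1 gene of this list was higher in place of 2.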

How the data were processed

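RNA of 3 Dia2 siRNA and 3 control siRNA libraries was sequenced. TopHat2 2.0.6, HTSeq and bcl2fastq are named, per the submitters' processing notes, with the human builds hg19 and GRCh37, although the rows hold mouse genes, 99.3% of 23056 matched ones overlapping that gene in GRCm38. The authors deposited gene counts, all even, and RPKM values, per the file headers. Neither the counting strand nor the treatment of multiply mapped reads is stated in the sources used here. The groups were compared by edgeR 4.0.16 (quasi-likelihood, robust, TMM factors, filterByExpr with minimum count 10 and minimum total count 15, Benjamini-Hochberg adjustment over 14151 genes), tested on simulated data. A count floor of 6 equals 0.0545 to 0.0851 CPM and covers counting error only. Halved counts of replicates differed beyond sampling noise (chi-square per degree of freedom 7.04 to 90.7), so all 6 were kept. These values include Rn45s, whose share differed between replicates, so their upper end may largely reflect that row. The members and lists were chosen with earlier results of these data known. Named genes are the targeted gene, all annexins, up to 4 changed genes a list, others to describe it, the 5 genes most correlated with Anxa8 and its neighbours. Protein identity used global BLOSUM62 alignment (Biopython) of translated GENCODE M21 transcripts, and promoters came from RefSeq. Alternatives used DESeq2 1.42.0, limma 3.58.1, other scalings and filters, a replicate block, and leaving out 1 library at a time. A gene of one list is not reported here.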

Additional observations from a re-analysis of the deposited data

How the results depend on the processing

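Across 16 alternatives the 8 annexins past the threshold kept their direction, and Anxa7, which did not pass, ranged from -0.03 to 0.02. S100a10, S100a11 and up to 4 of the most changed genes a list also kept their direction. Other partner genes named to describe a list, such as Plscr4, Tmem30a and Sri, were not followed across the alternatives. Anxa8 ranged from 4.38 to 4.59 and Anxa6 from -0.61 to -0.52 on the log2 scale. Same-numbered libraries did not deviate together over all genes (correlations 0, 0 and -0.08). Dia2 replicate 1 and control replicate 3, both rich in Rn45s, gave only 0.04, so this check cannot exclude a pairing. The main fit left the libraries unpaired. With the replicate block 3877 genes were higher and 3895 lower, and 3 and 4 of the members. With no composition factor 1 non-S100 partner was higher. When a mean CPM of at least 1 was required 1 copine was higher, since Cpne5, at a mean of 0.181 CPM, fell below that filter. Without both libraries richest in Rn45s (chosen after seeing the data) 1 copine was higher and 5 repair genes were lower. Apart from the filter, the cause was not tested. With each library left out in turn, 3 to 5 members were lower, 1 to 4 non-S100 partners and 1 to 3 copines or synaptotagmins were higher, and 3 to 5 repair genes were lower. Depth limits statements on genes near 0.0851 CPM, such as Anxa10, Anxa13 and Fpr2.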

Other observations

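Blood and macrophage markers were scarce, and of 8, 5 were tested, 0 higher and 3 lower with Dia2 siRNA. Of all genes tested, 29.3% were higher and 29.9% lower. Cd53, Itgb2 and Cd68 were at 0.675, 0.892 and 0.967 CPM with Dia2 siRNA and at 3.41, 2.65 and 1.99 CPM with control siRNA (edgeR adjusted p = 1.62e-06, 1.25e-05 and 0.00235). Csf1r (3.00 CPM with Dia2 siRNA and 2.92 CPM with control siRNA) and Lyz2 (1.09 CPM with Dia2 siRNA and 0.779 CPM with control siRNA) did not pass (edgeR adjusted p = 0.877 and 0.0935). Itgam, not tested, had 10, 6 and 6 counts with Dia2 siRNA, against 0, 2 and 0 with control siRNA, and Ptprc and Adgre1, also not tested, averaged at most 0.0374 CPM in either group. Summed RPKM of the 8 were 2.21 to 3.47 with Dia2 siRNA, against 4.2 to 5.14 with control siRNA. Anxa1 and Anxa3, which leukocytes express strongly, moved in opposite directions beside them, and the part of these markers was not tested. Endothelial markers summed to 0.141 to 0.16 RPKM with Dia2 siRNA and 0.219 to 0.258 RPKM with control siRNA. On average most of this was Kdr, at 0.0989 RPKM with Dia2 siRNA and 0.18 RPKM with control siRNA. Of 6 endothelial markers 3 were tested, and Kdr alone passed (edgeR adjusted p = 0.00631). Pecam1 and Tek did not pass (edgeR adjusted p = 0.56 and 0.551).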
